A study of Mus musculus with 6 samples.

Results

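The proteasome subunit genes were taken as the protein-coding mouse genes whose symbols run from Psma to Psmg followed by a number, which gave 48 genes of 55416 in the count table. Of these, 19 encode proteins of the core particle (Psma and Psmb), 20 belong to the regulatory particle by symbol (Psmc and Psmd), 5 are activators or an inhibitor (Psme and Psmf) and 4 are assembly chaperones (Psmg). The cells were mouse neural progenitors, with embryonic brain as their stated source, held in quiescence by 20 ng/ml Bmp4 together with 10 ng/ml FGF2. Cells of the EU group received ethynyluridine, a uridine analogue built into newly made RNA, at 250 µM on day 1 of quiescence, and those of the PBS group received the vehicle. On day 8 the RNA of both groups was biotinylated by click chemistry and captured on streptavidin, so the comparison asks which transcripts labelled early in quiescence remained 7 days later, beyond what binds without label. Each group had 3 libraries, and no strain, age or genotype is given in the labels, nor whether the replicates were separate cultures; p-values therefore measure the spread between these libraries, which may be technical.

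The proteasome is the protease that degrades most ubiquitin-tagged proteins of the cytosol and nucleus. Its core particle is a barrel of stacked alpha and beta rings with the proteolytic sites inside, and the regulatory particle caps the barrel, binds ubiquitin chains, removes them and unfolds the substrate with a ring of ATPases. Its subunits are needed in equal numbers in the finished complex, and the transcription factor Nfe2l1 is known to raise many of their genes together when proteasome activity falls. In neural stem cells, protein turnover through the proteasome and lysosome is known to differ between the quiescent and the dividing state.

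The 3 EU libraries held 9564856 to 26479031 counts and the 3 PBS libraries 413181 to 729649, of which 12465 to 52159 and 1064 to 1880 fell on the 48 genes. In CPM, the counts scaled to a common library size after TMM correction for composition, 3 counts equalled 0.105 to 0.377 in EU libraries and 3.84 to 6.33 in PBS libraries. The progenitor markers Sox2, Nes, Pax6, Vim, Fabp7, Hes5 and Slc1a3 had counts in every library, with Sox2 at 249 to 356 CPM in EU and 310 to 405 CPM in PBS. Of 5 microglia and leukocyte markers, Aif1, Cx3cr1 and Csf1r had no count in any library, Ptprc had none in EU, and the list never exceeded 1.58 CPM. Neuronal, oligodendrocyte and vascular marker sums overlapped between the groups. The 4 astrocyte markers summed to 674 to 1727 CPM in EU and 2707 to 9459 CPM in PBS, with Gfap and Aqp4 higher in every PBS library and S100b and Aldh1l1 overlapping, and the part of this difference in the results below was not tested.

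Proteasome genes took a smaller share of the EU pulldown than of the vehicle pulldown, and no single gene passed the test. Their summed level was 1566, 1827 and 1622 CPM in EU replicates 1, 2 and 3 and 2143, 2246 and 2404 CPM in PBS replicates 1, 2 and 3. All EU libraries lay below all PBS libraries, the PBS mean was 1.35 times the EU mean, and the order held with DESeq2 size factors (1.45 times) and with library size alone (1.52 times). In unscaled terms the genes held 0.130%, 0.197% and 0.150% of EU counts and 0.210%, 0.258% and 0.258% of PBS counts. In bulk libraries, fewer cells expressing a gene and less RNA per cell cannot be told apart. Nor can labelling on day 1, the RNA remaining on day 8 and binding without label. A share says nothing of the absolute amount of retained RNA.

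**Figure D1:**
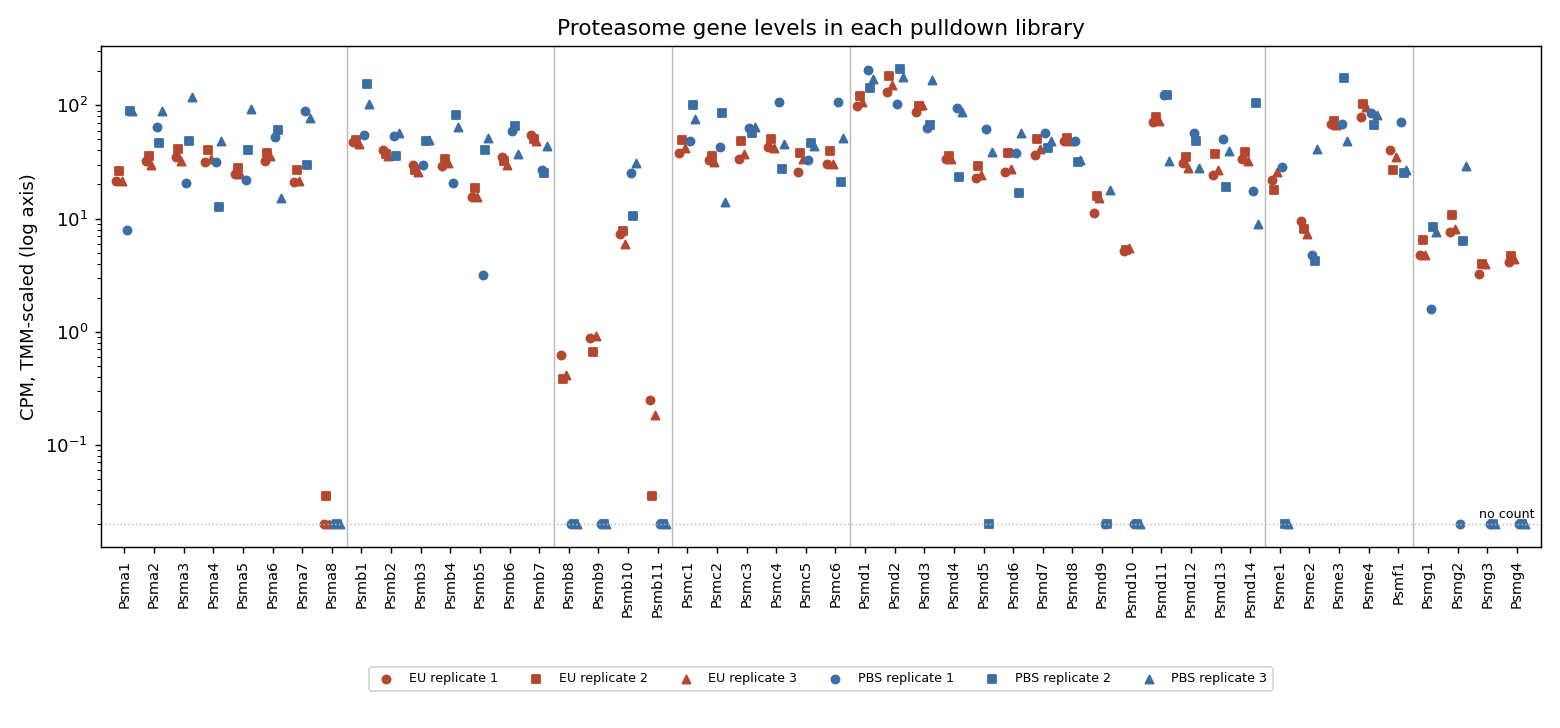
Level of each of the 48 proteasome genes in each library, in TMM-scaled CPM on a log axis, with EU in red, PBS in blue, the shape giving the replicate and vertical lines separating role groups. The EU points of a gene lie close together and the PBS points are spread, and Psma8, Psmb8, Psmb9, Psmb11, Psmd10, Psmg3 and Psmg4 have no PBS count (dotted line).

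Of the 48 genes, 44 passed the low-count filter and 4 did not, namely Psma8, Psmb8, Psmb9 and Psmb11. With edgeR's quasi-likelihood test over 12477 genes, 0 of the 44 were called higher, where 0% of all tested genes were, and 0 were called lower, where 0.024% were. At an unadjusted p below 0.05, 4 were lower (Psma2, Psma7, Psmb1 and Psmd1; background 4.26%) and 3 were higher (Psmd10, Psmg3 and Psmg4; background 13%). DESeq2 called Psma2, Psma7, Psmb1, Psmb10 and Psmd1 lower, with adjusted p from 0.0134 to 0.0473, against a background of 3.49%, and none higher, against 3.95%. Limma-voom called none (background 1.78% higher and 0.2% lower). With a variance weight for each group it called Psmd10, Psmg3 and Psmg4 higher, with adjusted p from 0.0108 to 0.0185 (background 5.79%), and none lower (0.297%). These 3 genes passed the filter through EU counts alone and had no PBS count, as had 5.54% of all tested genes. No member was called by edgeR without the low-count filter (background 0.437% higher and 1.21% lower) or with library size alone (0.024% and 0.321%).

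The fitted log2 fold of EU over PBS was below 0 for 35 of the 44 tested genes, against 43.5% of all tested genes. Its median was -0.41, where the median of all tested genes was 0.15. All EU libraries lay below all PBS libraries for 8 genes (Psma2, Psma7, Psmb1, Psmb3, Psmb6, Psmb10, Psmc3 and Psmd1; background 6.4%) and above them for 4 (Psmb7, Psmd10, Psmg3 and Psmg4; background 21.8%). Without PBS replicate 3 the number below 0 was 29, the lowest of the leave-one-out values, while the background was 41.4%.

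**Figure D2:**
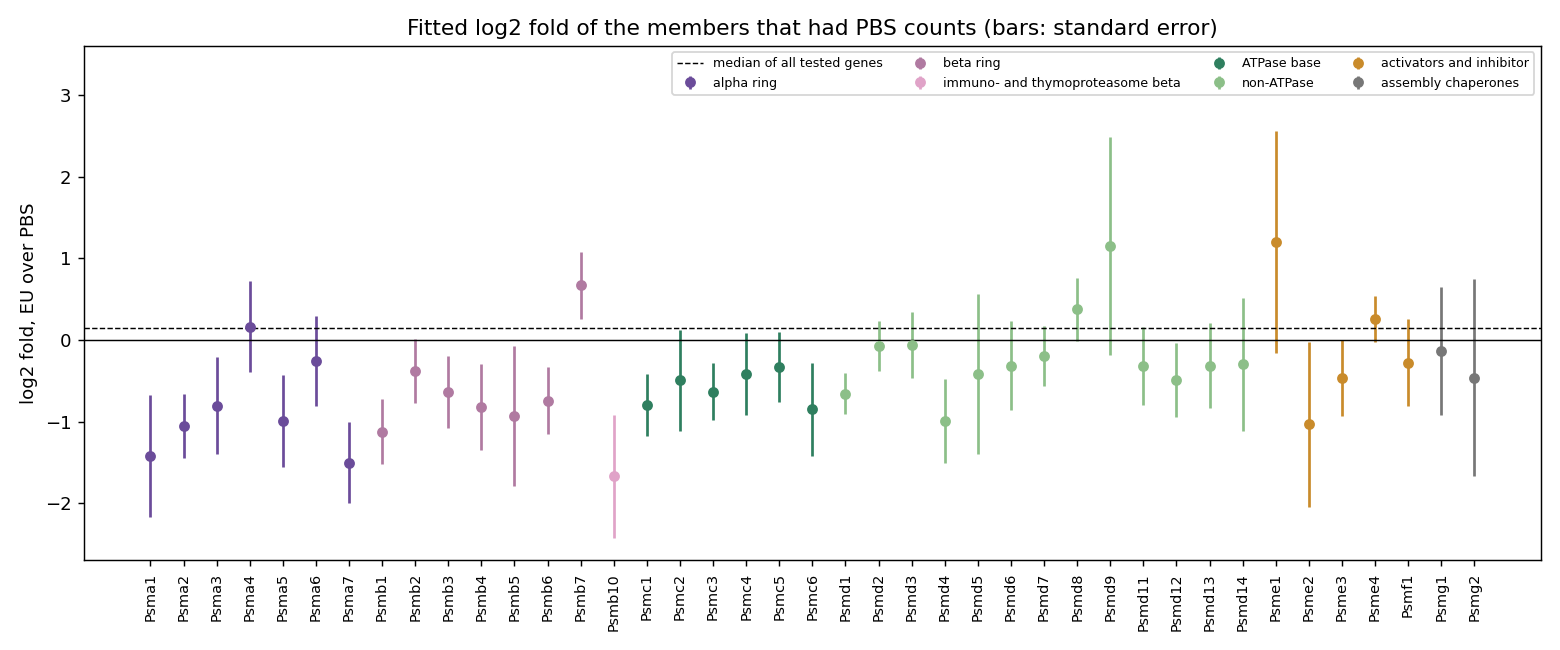
Fitted log2 fold of EU over PBS (edgeR) with its standard error for the 41 tested genes that had PBS counts, coloured by role. The solid line marks 0 and the dashed line the median of all tested genes at 0.15; of the core genes, Psma4 and Psmb7 lie above 0.

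The 7 standard alpha subunits, which form the outer rings of the barrel and the gate for substrates, summed to 199, 237 and 199 CPM in EU and 287, 327 and 532 CPM in PBS. The groups did not overlap, and the fitted fold was negative for 6 of the 7 tested genes with a median log2 fold of -0.996. Psma7 had the smallest p of the ring, at 21.0, 27.0 and 21.6 CPM in EU and 88.4, 29.6 and 78.0 CPM in PBS. Every PBS library exceeded every EU library, yet PBS replicate 2 lay close to EU replicate 2 (log2 fold -1.50 ± 0.49 SE, edgeR adjusted p = 0.145).

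Psma2 measured 32.3, 35.4 and 29.5 CPM in EU and 64.7, 46.4 and 89.5 CPM in PBS, again with separated groups (log2 fold -1.05 ± 0.39 SE, adjusted p = 0.201). Psma1 was at 21.5, 26.4 and 21.3 CPM in EU, whereas PBS gave 7.89, 88.7 and 89.5 CPM. PBS replicate 1 fell below all EU libraries and the other two far above, so the groups overlapped (log2 fold -1.42 ± 0.74 SE, adjusted p = 0.397). Psma3, which took the most EU counts of the alpha genes, measured 34.9, 41.1 and 32.5 CPM there and 20.5, 48.6 and 119 CPM in PBS. Its fold rested on PBS replicate 3, since the log2 fold of -0.80 became 0.09 without that library.

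The remaining alpha genes overlapped between the groups. Psma5 averaged 26.0 ± 1.74 CPM in EU (SD, n = 3) and 51.4 ± 36.3 CPM in PBS, and Psma6 35.4 ± 2.95 and 42.9 ± 24.3 CPM. Psma4 was the only alpha gene with a fold above 0, at 35.0 ± 4.70 and 30.9 ± 18.0 CPM. Psma8, the alpha subunit of the testis, had 1 count in EU replicate 2 and none in the other 5 libraries.

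The 7 standard beta subunits line the inner rings, and Psmb5, Psmb6 and Psmb7 carry the chymotrypsin-like, caspase-like and trypsin-like proteolytic sites. Their summed level was 252, 248 and 231 CPM in EU and 249, 452 and 405 CPM in PBS, so PBS replicate 1 lay within the EU range. The fold was negative for 6 of 7 with a median log2 fold of -0.74. Psmb1, a structural beta subunit, measured 47.4, 49.7 and 45.1 CPM in EU and 55.2, 154.1 and 102.3 CPM in PBS. Its groups were separated, though by a small margin in PBS replicate 1 (log2 fold -1.12 ± 0.40 SE, edgeR adjusted p = 0.181).

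Among the catalytic genes, Psmb6 measured 34.9, 32.3 and 29.4 CPM in EU and 60.0, 65.4 and 37.1 CPM in PBS, with every PBS value above the EU values (log2 fold -0.74 ± 0.41 SE, adjusted p = 0.428). Psmb7 went the other way, at 54.5, 50.2 and 48.4 CPM in EU and 26.8, 25.3 and 43.5 CPM in PBS. It was the only standard core gene with all EU libraries above all PBS libraries (log2 fold 0.67 ± 0.41 SE, adjusted p = 0.499). Exons of Psmb7 overlap those of Nek6 on the opposite strand, and the strand setting of the counting is not known. Psmb5 measured 15.5, 18.5 and 15.4 CPM in EU and ranged in PBS from 3.16 to 51.1 CPM. Of the other beta genes, Psmb2, Psmb3 and Psmb4 averaged 27.5 to 37.8 CPM in EU and 42.8 to 55.6 CPM in PBS.

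Because Nfe2l1 and its relative Nfe2l2 bind antioxidant response elements, the 250 bases before each gene start were searched for the core of that element, TGACNNNGC, on both strands. Of 43 windows of 40 member genes, 5 held it (11.6%), against 10.2% of 32851 windows of all genes. The CCAAT box, bound by NF-Y, was in 14 of the 43 (32.6%), against 33.8% of all windows, and the 2 motifs have no letters that force an overlap. Windows of Psma8, Psmb1, Psmb2, Psmb7, Psmc3, Psmd3, Psmd7 and Psmg2 were not used here. The last 120 bases before the gene start are shown for the 3 genes whose match lay nearest to it, the catalytic genes Psmb5 and Psmb6 and the chaperone gene Psmd9, with the match in capitals. They are RefSeq sequences of build GRCm38.p6 at chr14:54617996-54618115 (minus strand), chr11:70525237-70525356 (plus strand) and chr5:123228070-123228189 (plus strand), written 5′ to 3′ on the gene's strand. The match starts 47, 9 and 31 bases before the gene start.
Psmb5: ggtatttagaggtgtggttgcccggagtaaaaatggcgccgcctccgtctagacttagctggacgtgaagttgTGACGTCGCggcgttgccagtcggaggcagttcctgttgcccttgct
Psmb6: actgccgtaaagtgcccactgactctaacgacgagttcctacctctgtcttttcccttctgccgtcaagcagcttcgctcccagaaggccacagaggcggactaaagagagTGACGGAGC
Psmd9: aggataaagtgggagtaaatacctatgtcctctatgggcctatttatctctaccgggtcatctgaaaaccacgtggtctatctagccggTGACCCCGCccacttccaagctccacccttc
Of these 3 genes, Psmb5 and Psmb6 had log2 folds of -0.94 and -0.74. Psmd9 had 1.15 ± 1.33 (SE), with counts in PBS replicate 3 alone. The other genes with the motif, Psmc6 and Psmd12, were at -0.85 and -0.49. None of these folds passed edgeR's test.

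The inducible catalytic subunits Psmb8, Psmb9 and Psmb10 replace Psmb5, Psmb6 and Psmb7 after interferon signalling and in immune cells. Psmb10 measured 7.29, 7.81 and 5.92 CPM in EU and 25.3, 10.6 and 30.7 CPM in PBS. All PBS values lay above the EU values, on 16, 5 and 24 counts (log2 fold -1.67 ± 0.76 SE, edgeR adjusted p = 0.311). Psmb8 and Psmb9 were at 0.385 to 0.628 and 0.666 to 0.917 CPM in EU and had no PBS count, which at 3 counts over the PBS group allows up to 1.59 CPM, so no fold can be given. Psmb11, the beta subunit of the thymic cortex, had 1 to 4 counts per EU library and none in PBS.

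Per kilobase of principal mRNA, the level of Psmb6 was 67.3, 82.2 and 54.4 times that of its counterpart Psmb9 in EU replicates 1, 2 and 3. The level of Psmb5 was 44.5, 86.9 and 67.6 times that of Psmb8 on the same scale, resting on 5 to 11 counts of Psmb8. The level of Psmb7 per kilobase was only 8.46, 7.26 and 9.24 times that of Psmb10 in EU and 1.20, 2.71 and 1.60 times in PBS. The ranges of this last ratio did not overlap between the groups, with Psmb7 and Psmb10 lying on opposite sides of 0 in their fitted folds.

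The 6 ATPases of the base, which unfold substrates and thread them into the barrel, summed to 204, 261 and 216 CPM in EU and 402, 340 and 294 CPM in PBS. The groups did not overlap, and all 6 had a negative fitted log2 fold, from -0.85 to -0.34 with a median of -0.56. Psmc3 had separated groups at 33.3, 48.6 and 36.9 CPM in EU and 63.1, 57.0 and 63.9 CPM in PBS (log2 fold -0.63 ± 0.35 SE, edgeR adjusted p = 0.441). Its PBS values varied little for this group of libraries, while EU replicate 2 was higher than the other two.

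Psmc1 measured 38.3, 49.1 and 41.7 CPM in EU and 48.9, 101.3 and 75.4 CPM in PBS. PBS replicate 1 and EU replicate 2 were nearly equal there, so the groups just overlapped (log2 fold -0.80 ± 0.38 SE, adjusted p = 0.334). Psmc6 was at 30.3, 39.2 and 30.5 CPM in EU and 107, 21.1 and 51.1 CPM in PBS, and Psmc4, the ATPase gene with the most EU counts, at 43.1, 50.7 and 42.2 CPM and 107, 27.4 and 46.0 CPM. Both had their high PBS value in replicate 1, without which the log2 fold of Psmc4 went from -0.42 to 0.30 and that of Psmc6 from -0.85 to -0.13. Psmc2 and Psmc5 averaged 33.3 ± 2.06 and 32.4 ± 6.13 CPM in EU and 47.7 ± 36.5 and 41.0 ± 6.98 CPM in PBS (SD, n = 3).

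The 14 Psmd genes encode the non-ATPase subunits, which include the scaffolds, the ubiquitin receptors and the lid, and 3 of them (Psmd5, Psmd9 and Psmd10) encode chaperones of base assembly that leave the finished particle. Together they summed to 664, 817 and 715 CPM in EU and 920, 832 and 906 CPM in PBS, without overlap but with EU replicate 2 close to PBS replicate 2. The median log2 fold was -0.31, with 11 of 14 below 0. Psmd1, a large scaffold of the base, measured 99.5, 121.9 and 106.1 CPM in EU and 205, 141 and 170.0 CPM in PBS. Every PBS library exceeded every EU library, and its standard error was the smallest of the tested members (log2 fold -0.66 ± 0.25 SE, edgeR adjusted p = 0.210).

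Psmd2, the other large scaffold and the proteasome gene with the highest EU level per kilobase of mRNA, was at 132, 181 and 151 CPM in EU and 103, 211 and 178 CPM in PBS. The groups overlapped and the log2 fold was -0.08 ± 0.31 (SE, adjusted p = 0.939). Psmd4, a ubiquitin receptor, measured 33.9, 36.1 and 33.7 CPM in EU and 94.7, 23.2 and 86.9 CPM in PBS, where replicate 2 fell below all EU libraries (log2 fold -0.995 ± 0.51 SE, adjusted p = 0.390). Psmd14, the deubiquitinase of the lid, was steady in EU at 33.3, 38.9 and 32.1 CPM and spread in PBS at 17.4, 105.6 and 8.95 CPM.

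The lid genes Psmd3, Psmd6, Psmd7, Psmd8, Psmd11, Psmd12 and Psmd13 overlapped between the groups, with log2 folds from -0.49 in Psmd12 to 0.38 in Psmd8. Psmd3 averaged 95.9 ± 6.79 CPM in EU (SD, n = 3) and 99.4 ± 59.0 CPM in PBS. The chaperone gene Psmd5 averaged 25.4 ± 3.53 CPM in EU and had 61.6, 0 and 38.4 CPM in PBS. Psmd9 averaged 14.1 ± 2.44 CPM in EU, with counts in PBS replicate 3 alone. Psmd10, which encodes gankyrin, was at 5.15, 5.32 and 5.46 CPM in EU and had no PBS count. Its EU mean was 3.34 times the level of 3 counts over the PBS group, a floor that covers counting error only. Psmd10 passed the filter through EU counts alone, so its edgeR adjusted p of 0.080 is no support for a higher level.

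Activators that open the core without the ATPase cap behaved unevenly, and none passed the test. The 4 activator genes and the inhibitor gene Psmf1 summed to 219, 229 and 232 CPM in EU and 257, 270.2 and 198 CPM in PBS, with overlap. Psme4, a nuclear activator, took the most EU counts of them, at 79.2, 103.7 and 97.7 CPM in EU and 85.2, 67.6 and 81.8 CPM in PBS (log2 fold 0.26 ± 0.28 SE, edgeR adjusted p = 0.742). Psme3, the other nuclear activator, was at 68.2, 72.3 and 66.8 CPM in EU and 67.9, 173 and 48.6 CPM in PBS. PBS replicate 2 set its fold, which went from -0.46 to 0.25 on the log2 scale without that library.

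Psme1 and Psme2 form the interferon-inducible activator together. Psme1 averaged 21.9 ± 3.88 CPM in EU and had all its 18 PBS counts in replicate 1. Psme2 measured 9.42, 8.13 and 7.34 CPM in EU and 4.73, 4.22 and 40.9 CPM in PBS, and without PBS replicate 3 its log2 fold went from -1.04 to 0.88. Psmf1 averaged 33.9 ± 6.73 CPM in EU (SD, n = 3) and 41.1 ± 26.0 CPM in PBS.

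The assembly chaperones Psmg1 to Psmg4, which build the alpha ring, had mean EU levels of 3.75 to 8.84 CPM. They summed to 19.9, 25.8 and 21.2 CPM in EU and 1.58, 14.8 and 37.1 CPM in PBS, on 1, 7 and 29 PBS counts. Psmg3 was at 3.27, 3.99 and 3.99 CPM and Psmg4 at 4.15, 4.69 and 4.40 CPM in EU, and neither had a PBS count. The EU means of Psmg3 and Psmg4 were 2.36 and 2.78 times the level of 3 counts over the PBS group, a floor that covers counting error only. Both passed the filter through EU counts alone, so the edgeR adjusted p of 0.080 each is no support for a higher level. Psmg1 averaged 5.30 ± 0.959 CPM in EU and 5.90 ± 3.76 CPM in PBS, and Psmg2 8.84 ± 1.67 and 11.9 ± 15.5 CPM, with overlap in both. The log2 fold of Psmg2 was -0.46 ± 1.20 (SE, adjusted p = 0.910) and turned to 1.65 without PBS replicate 3.

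Set side by side, the core particle lay further below the vehicle than the regulatory particle, but the ratio of the 2 overlapped between the groups. Core genes summed to 459, 494 and 437 CPM in EU and 562, 790 and 968 CPM in PBS, a PBS mean 1.67 times the EU mean. Regulatory genes summed to 868, 1078 and 931 CPM in EU and 1323, 1172 and 1201 CPM in PBS, 1.28 times. The median log2 fold was -0.82 over the 15 tested core genes and -0.33 over the 20 regulatory genes, and it was -0.34 without Psmd5, Psmd9 and Psmd10. Folds were below 0 for 13 of 15 core and 17 of 20 regulatory genes.

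The ratio of core to regulatory CPM was 0.529, 0.458 and 0.469 in EU and 0.425, 0.674 and 0.806 in PBS. PBS replicate 1 lay below the EU libraries and the other two above, so the groups overlapped, and no test was made of the difference between the particles. The difference of the mean log2 ratios was -0.34, and it was -0.60 without PBS replicate 1 and -0.14 without PBS replicate 3. In PBS, the core genes rested on a median of 19 to 45 counts per gene and the regulatory genes on 21 to 36.

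**Figure D3:**
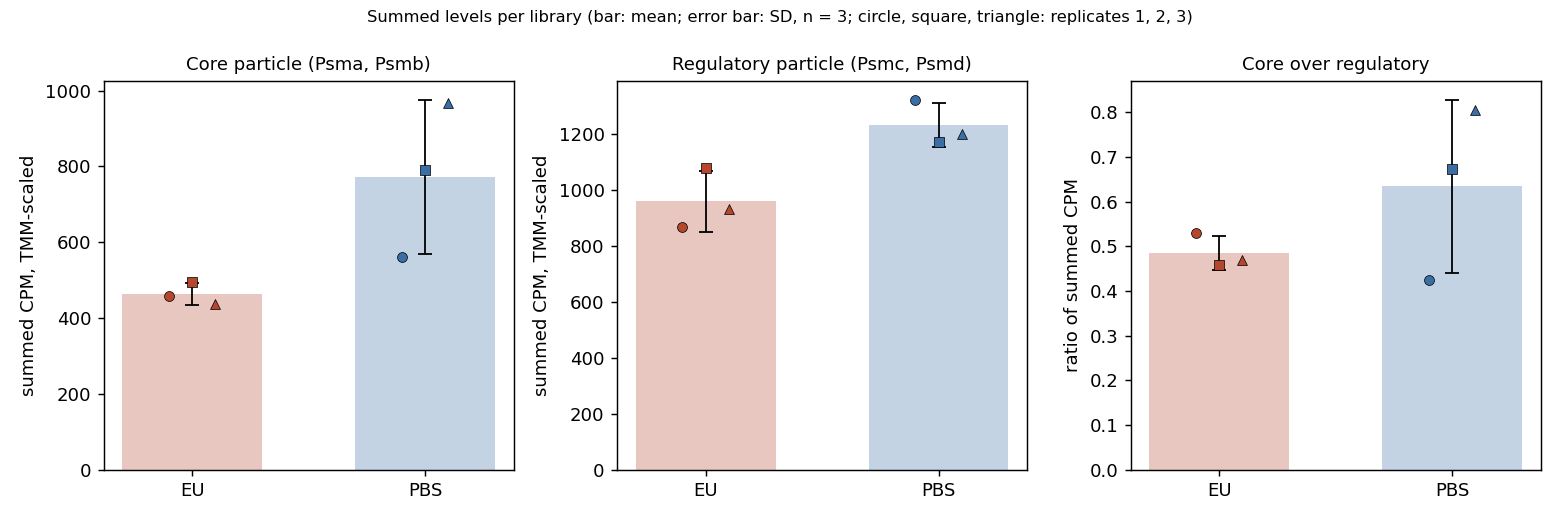
Summed TMM-scaled CPM of core and regulatory genes and their ratio in each library, with bars at the mean, error bars at the SD (n = 3) and symbols for replicates. The EU sums lie below all PBS sums for both particles, and the PBS ratios from 0.425 to 0.806 span the EU ratios from 0.458 to 0.529.

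The members varied far less among EU libraries than among PBS libraries. The median coefficient of variation of a tested gene was 11.0% in EU and 57.1% in PBS, where sampling of counts alone would give 4.58% and 18.4%. Over all tested genes the medians were 14.7% and 77.7%. In EU, replicate 2 was the highest library for 33 of the 41 tested genes that had PBS counts. In PBS the highest value lay in replicate 1 for 14 genes, in replicate 2 for 11 and in replicate 3 for 16. This tally does not measure how far a single vehicle library set the sums. The core sum was highest in PBS replicate 3 (968 CPM) and the regulatory sum in PBS replicate 1 (1323 CPM).

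Scaled to the length of the principal mRNA, EU levels of the 14 standard core genes ran from 11.1 CPM per kilobase in Psma2 to 44.0 in Psmb7 and Psmb2, a 3.95-fold range. The ATPase genes spanned 14.9 (Psmc6) to 31.5 (Psmc4) on this scale. The 17 regulatory genes without the base chaperones spanned 14.8 (Psmd13) to 52.3 (Psmd2), a 3.53-fold range. The base chaperones lay lower, with 5.77 in Psmd5, 5.43 in Psmd9 and 3.71 in Psmd10, as did the Psmg chaperones at 4.25 to 8.35. The low level was not particular to chaperones, since the activator gene Psme2 was at 8.62 and the inhibitor gene Psmf1 at 8.91.

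**Figure D4:**
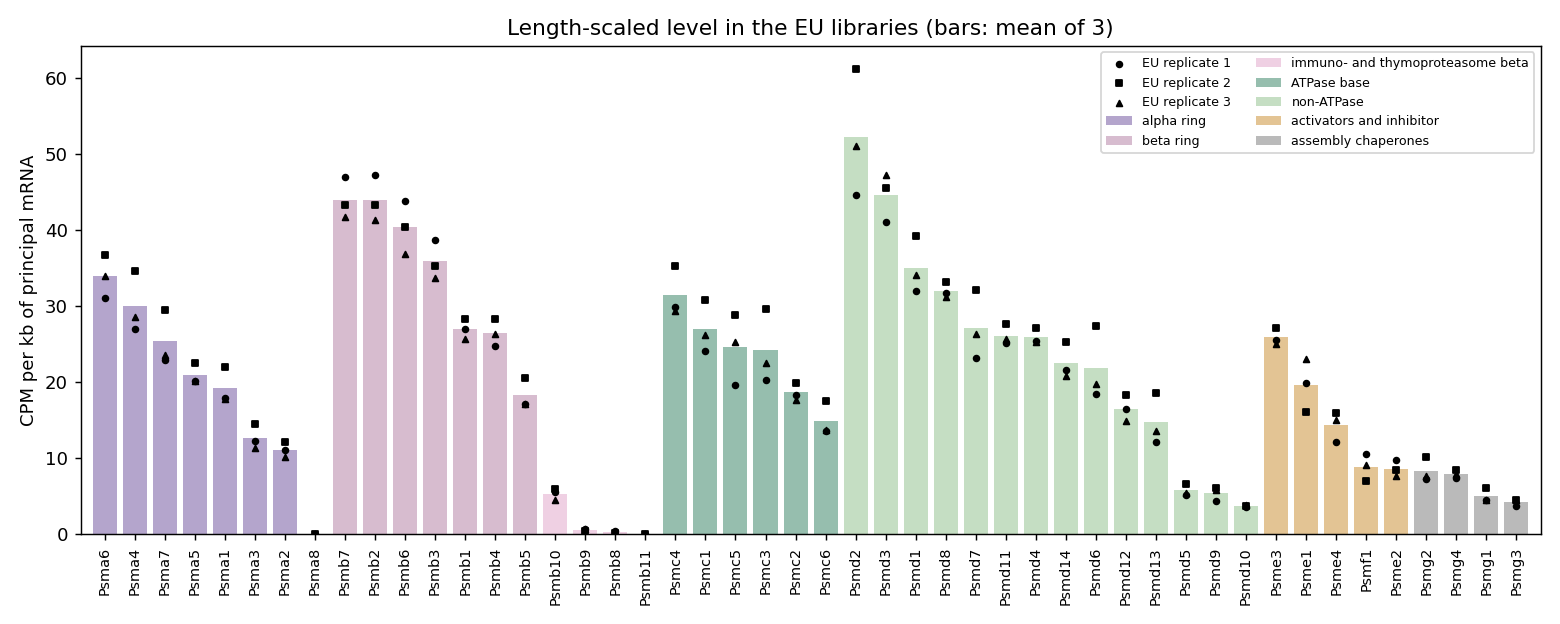
Level in the EU libraries per kilobase of principal mRNA, ordered within each role group, with bars at the mean of 3 libraries and symbols for the replicates. Assembly chaperones, inducible catalytic subunits, Psma8, Psmb11, Psme2 and Psmf1 sit below 10. The 14 standard core genes and the 17 regulatory genes other than Psmd5, Psmd9 and Psmd10 lie between 11.1 and 52.3.

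Proteasome mRNAs are short, with a median principal mRNA of 1201 bases in the core and 1710 in the regulatory particle, against 3220 over all tested genes. Uridine made up a median of 25.3% and 23.5% of their bases, against 24.4%. Across the 41 tested members with PBS counts, the log2 fold had a Spearman rho of 0.17 with mRNA length and -0.06 with uridine content, and across 10628 tested genes 0.15 and -0.03. These are descriptions across genes that share the same libraries. Within the 15 core genes the rho with length was -0.45, and within 19 regulatory genes 0.08.

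Genes that work with the proteasome but carry other symbols were taken in 6 lists, and none of their tested members passed edgeR's test in either direction. Of those named here, DESeq2 called Nsfl1c, Cops5, Cops6, Zfand5 and Nfe2l2 lower and Syvn1 higher. The DESeq2 adjusted p ran from 3.4e-07 for Nsfl1c to 0.0467 for Nfe2l2. Over all tested genes DESeq2 called 3.49% lower and 3.95% higher. The named genes include the smallest p of each list, so their calls do not give a share of the lists. Of 11 tested associated factors, 6 had a negative fold and the median log2 fold was -0.16. Zfand5, which binds and activates the proteasome, averaged 78.3 ± 4.13 (SD, n = 3) in EU and 120 ± 22.1 CPM in PBS with separated groups, Usp14, a proteasome-bound deubiquitinase, 44.1 ± 6.57 and 65.4 ± 46.8 CPM, and Ecpas, a proteasome adaptor, 102.2 ± 8.17 and 100.4 ± 51.9 CPM. In the Nfe2l1 list 6 of 10 were negative (median -0.15). Nfe2l1 itself averaged 228 ± 23.0 and 263 ± 116 CPM, its relative Nfe2l2 84.7 ± 1.51 and 143 ± 45.2 CPM with separated groups, and Syvn1, a ubiquitin ligase of the endoplasmic reticulum, 57.4 ± 4.26 and 18.3 ± 10.7 CPM, separated the other way (edgeR adjusted p = 0.156).

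Uba1, the main ubiquitin-activating enzyme, averaged 431 ± 28.5 CPM in EU (SD, n = 3) and 367 ± 37.1 CPM in PBS, with overlap. The second activating enzyme Uba6 averaged 24.2 ± 1.44 and 10.8 ± 7.83 CPM, with all EU libraries above all PBS libraries. The list of shuttle factors, with the unfoldase gene Vcp and its cofactors, had 2 of 11 negative and a median of 0.23. Vcp averaged 387 ± 13.5 and 328 ± 113 CPM, with overlap. The shuttle Ubqln2 averaged 262 ± 53.1 and 173 ± 31.6 CPM, with all EU libraries above all PBS libraries. By contrast, the Vcp cofactor Nsfl1c was at 24.9, 36.7 and 34.1 CPM in EU and 86.8, 141.4 and 125.3 CPM in PBS. All its PBS values lay above all its EU values (log2 fold -1.88 ± 0.34 SE, edgeR adjusted p = 0.080; DESeq2 adjusted p = 3.4e-07).

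The COP9 signalosome, a complex related to the lid, had 7 of 10 genes negative with a median log2 fold of -0.09. Cops5, the catalytic subunit and a relative of Psmd14, averaged 32.4 ± 2.40 CPM in EU and 79.7 ± 37.1 CPM in PBS (edgeR adjusted p = 0.148). Cops6 averaged 27.7 ± 0.766 and 49.8 ± 3.05 CPM, and Cops7a 53.6 ± 0.602 and 54.8 ± 25.1 CPM (SD, n = 3). All EU libraries lay below all PBS libraries for Cops5 and Cops6, and Cops7a overlapped. Among 10 antigen presentation and interferon genes 5 were negative with a median of 0.11. Tapbp, a peptide-loading chaperone, averaged 90.0 ± 28.5 and 74.0 ± 45.8 CPM, the transactivator of class I genes Nlrc5 1.32 ± 1.14 and 18.0 ± 24.6 CPM, and Irf1, an interferon-induced factor, 2.23 ± 0.259 and 1.41 ± 2.44 CPM. Most of the Nlrc5 value in PBS came from replicate 3, at 46.0 CPM, and all of the Irf1 value came from replicate 2, at 4.22 CPM.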

How the data were processed

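Gene-level RNA counts of 3 EU and 3 PBS pulldown libraries were used. The authors deposited whole-number counts per Ensembl gene ID without normalization. Build GRCm39 and the tools featureCounts 2.0.1, STAR 2.7.10b, UMI-tools 1.1.2 and bcl2fastq 2.20.0 appear, with no roles, per the submitters' processing notes. No source used here gives the strand or multi-mapping setting. Values of the 13 members whose exons overlap another gene's (among them Psma4, Psmb7, Psmb9, Psmd1 and Psme1) are therefore uncertain. Symbols, classes and lengths came from GENCODE M21 (an earlier build), with 52135 of 55416 IDs matched; a principal mRNA is the APPRIS principal transcript.

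edgeR 4.0.16 in R 4.3.3 (quasi-likelihood test, TMM factors, filterByExpr, group as the only term) was fitted over 12477 genes, with Benjamini-Hochberg adjustment and a threshold of 0.05. Folds are EU over PBS on the log2 scale. The SE of an edgeR fold was derived from the test, as the absolute log2 fold over the square root of the F statistic. Where a gene had no PBS count, its EU mean was set against 3 counts over the PBS group. Such floors cover counting error only, not the spread between PBS libraries. No test was made of sums or ratios over members. The fit was tested on simulated counts with the EU spread in both groups. Its behaviour with the wider spread of the PBS libraries was therefore not tested. Alternatives were DESeq2 1.42.0, limma-voom (limma 3.58.1), other scalings and filters, the replicate block and leaving out each library. Paaf1 of the associated factors matched no gene ID. The sums over the progenitor markers and over the ubiquitin genes are not reported here.

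Members and lists were chosen with earlier results of these data known. Folds are named, per role group, for the 3 tested members with the smallest p and the most abundant in EU, and, per other list, for the 2 with the smallest p and the most abundant. Psma4, Psma5, Psma6, Psmb2 to Psmb5, Psmd5, Psmd8, Psmd9, Psmd12, Psmd14 and other members without a test value in the text are given by level or as context, chosen after their values were seen.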

Additional observations from a re-analysis of the deposited data

How the results depend on the processing

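No proteasome gene was called in edgeR under any scaling, filter or left-out library tried; DESeq2 called 5 and limma-voom with group weights, added after seeing the data, 3. Over all genes edgeR called 3, with DESeq2 size factors 7, with library size alone 43, without a low-count filter 457, with the replicate block 197, and with a library left out 0 to 12 (0 without PBS replicate 1, 2 or 3, 1 without EU replicate 2 and 12 without EU replicate 1). DESeq2 called 928, limma-voom 247 and limma-voom with group weights 760. Same-numbered libraries deviated together only weakly (correlations 0.074, 0.051 and 0.034), though each correlated best with its own number; the replicate block moved the calls from 3 to 197, with Nsfl1c among them (adjusted p = 0.0109). The median log2 fold stayed negative, from -1.20 to -0.67 in the core and -0.51 to -0.27 in the regulatory particle with a library left out. The median of all genes, 0.15, was -0.01 with library size alone, 0.52 with limma-voom, 0.54 with the replicate block and 1.23 without a low-count filter.

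Some folds reversed, and the cause was not tested. Psmd2 reached 0.065 without a low-count filter and 0.030 with limma-voom, and ran from -0.31 to 0.14 with a library left out. Psmg2 reached 0.84 with limma-voom, 0.81 with group weights and 0.63 with the replicate block (-1.05 to 1.65 with a library left out). Ecpas stood at -0.081 with DESeq2 size factors, -0.11 with library size alone and -0.081 with DESeq2 (-0.33 to 0.40). Cops7a reached 0.13 without a filter, 0.0078 with at least 10 counts in 3 libraries, 0.11 with limma-voom, 0.10 with group weights and 0.062 with the replicate block (-0.28 to 0.39). Ranges with a library left out also crossed 0 for Psma3 (-1.21 to 0.088), Psmc4 (-0.75 to 0.30), Psme2 (-1.49 to 0.88), Psme3 (-0.79 to 0.25), Nfe2l1 (-0.50 to 0.10), Usp14 (-1.02 to 0.041) and Tapbp (-0.16 to 0.54). PBS depth limits all folds: 4 to 6 tested members had no count in a given PBS library.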

Other observations

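A pair of coding genes with similar symbols fell outside the symbol rule. Psmc3ip, a meiotic recombination factor that is not a proteasome subunit, had 14, 152 and 34 counts in EU replicates 1, 2 and 3 and 2, 0 and 0 in PBS, and its level stood highest in EU replicate 2 at 5.32 CPM against 1.76 and 1.56 CPM. Psme2b, a copy related to Psme2, had 5, 10 and 15 counts in EU and 0, 1 and 5 in PBS, and how reads shared with Psme2 were counted is not known here. The 4 pseudogene models named after Psmb genes held 1 count in EU, in Psmb7-ps2, and 3 counts in PBS, in Psmb6-ps2. Pseudogenes with other names were not examined.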
